A study of Rattus norvegicus with 8 samples.

Results

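Cells make cholesterol from acetyl-CoA through the mevalonate pathway, take it up from lipoproteins, bile and diet, and export what they do not need. The 31 genes described here cover parts of that cycle, with no lipoprotein receptor among them, and were chosen by name and role. They are 19 enzymes of synthesis and 4 genes that sense sterols. Another 4 move or store sterols inside the cell, and 4 carry them across the plasma membrane. A probe set stood for a gene where that gene was its only symbol in the platform annotation, and the brightest of a gene's probe sets over all arrays was used. In this way 28 of the 31 genes were measured, among 14217 genes in all. Hmgcs1, Npc1 and Npc1l1 were not analysed here. Of the 28, 26 passed the filter on dim probe sets and were tested, and the export pair Abcg5 and Abcg8 did not pass it. Abca1 was thus the only tested gene of the plasma membrane group, and no uptake gene of the list was tested.

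The RNA came from mucosa scraped off the distal colon of rats. A group of 4 samples was from rats that ate 10 g of quercetin, a plant flavonol, per kg of diet for 11 weeks, and the other 4 were from rats on the control diet, RM3, a breeder chow. The labels give no strain, sex or age. Values are MAS5 signals of an Affymetrix rat array, scaled per array, and fold changes are differences of log2(signal + 16), quercetin minus control.

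As background, the pathway runs in stages. Its early stage makes isoprenoid units, from which squalene, the dolichols and the lipid anchors of prenylated proteins are built, and its late stage turns squalene into cholesterol through lanosterol. When sterols in the endoplasmic reticulum are low, the escort protein SCAP carries the transcription factor SREBP2, the product of Srebf2, to the Golgi, where proteases release its active part. INSIG proteins hold SCAP back when sterols are plentiful, and Insig1 is itself a target of SREBP2. In the gut, epithelial cells both synthesise cholesterol and handle sterols from the lumen.

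SREBP2 acts at promoters together with the factors NF-Y and SP1, so the stretch before the start of the genes was read from RefSeq (build GRCr8). A promoter was found for 24 of the 28 genes, and Pmvk, Fdft1, Sqle and Stard4 had no entry in the table. In the 250 bases before each start, 4 motifs were searched on both strands: CACNCCAC, which resembles the core of a sterol response element, the NF-Y box CCAAT, the GC box GGGCGG and the E-box CACGTG. The 3 genes with the smallest p in the comparison of diets are shown, with Msmo1, an enzyme gene whose signal varied widely between control samples, and Insig1, the feedback gene that holds all 4 motifs. Sc5d is from chr8:51538278-51538527 (minus strand), Cyp51 from chr4:30991443-30991692 (plus strand), Scap from chr8:119184188-119184437 (plus strand), Msmo1 from chr16:29746863-29747112 (plus strand) and Insig1 from chr4:8057770-8058019 (minus strand). Capitals mark the motifs, which do not overlap in these 5 windows.
Sc5d: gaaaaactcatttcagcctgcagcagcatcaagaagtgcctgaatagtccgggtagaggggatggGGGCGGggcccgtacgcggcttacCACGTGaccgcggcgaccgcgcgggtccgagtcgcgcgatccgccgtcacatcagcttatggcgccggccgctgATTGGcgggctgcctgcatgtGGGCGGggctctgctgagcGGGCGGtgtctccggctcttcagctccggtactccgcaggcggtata
Cyp51: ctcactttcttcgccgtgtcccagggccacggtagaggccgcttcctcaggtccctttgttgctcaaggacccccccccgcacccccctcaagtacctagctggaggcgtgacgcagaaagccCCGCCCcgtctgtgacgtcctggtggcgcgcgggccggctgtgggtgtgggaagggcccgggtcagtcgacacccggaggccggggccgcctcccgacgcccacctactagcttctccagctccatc
Scap: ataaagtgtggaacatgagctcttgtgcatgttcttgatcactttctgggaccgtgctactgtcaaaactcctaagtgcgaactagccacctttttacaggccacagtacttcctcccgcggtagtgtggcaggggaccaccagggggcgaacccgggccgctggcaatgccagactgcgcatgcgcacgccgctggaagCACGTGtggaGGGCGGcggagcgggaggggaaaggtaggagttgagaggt
Msmo1: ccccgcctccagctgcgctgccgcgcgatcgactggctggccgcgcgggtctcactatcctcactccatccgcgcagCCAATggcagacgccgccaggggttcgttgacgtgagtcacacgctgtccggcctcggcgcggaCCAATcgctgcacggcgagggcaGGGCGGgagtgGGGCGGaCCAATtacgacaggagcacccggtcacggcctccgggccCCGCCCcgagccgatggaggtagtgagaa
Insig1: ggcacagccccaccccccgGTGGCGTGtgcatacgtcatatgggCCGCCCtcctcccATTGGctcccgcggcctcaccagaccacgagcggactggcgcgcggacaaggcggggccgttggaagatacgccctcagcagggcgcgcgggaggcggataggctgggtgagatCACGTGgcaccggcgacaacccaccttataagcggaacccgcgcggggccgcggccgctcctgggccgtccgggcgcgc

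The NF-Y box stood in 19 of the 24 promoters, or 79.2%, against 35.7% of the 9565 promoters of tested genes and 34.0% of all 33469 promoters of that length. Among the enzymes of synthesis 12 of 15 had one. The GC box was present in 18 of 24, or 75.0%, against 57.7% of the promoters of tested genes and 30.5% of all. The median GC content was 60.6% in the 24 promoters and 60% in those of tested genes. The sterol element-like motif occurred in 3 of 24, in Acat2, Ebp and Insig1, or 12.5%, against 5.24% for tested genes and 4.89% of all. The E-box occurred in 4 of 24, in Sc5d, Scap, Insig1 and Abca1, or 16.7%, against 8.08% for tested genes and 5.59% of all. The windows of Abcg5 and Abcg8, which are read in opposite directions from neighbouring starts, overlap and share their NF-Y box. A match describes letters in the window and does not show that a factor binds there.

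Marker genes were checked against the labelled tissue. All 10 markers of colon epithelium were tested, among them the keratin Krt8 at a mean signal of 20965 on quercetin arrays and 23662 on control arrays. The chloride exchanger Slc26a3 and the water channel Aqp8 of colonocytes were also above the filter. Of 11 smooth muscle markers 7 were tested, with Tagln and Cnn1 below the filter, and of 6 hepatocyte markers 2 were tested, with Alb and Apoa2 below it. Of 5 markers listed for small intestine only 3 were measured. Of these, Fabp2 and Mep1a were tested and Alpi was below the filter. The hepatocyte and small intestine markers had been listed as ones that should be absent. The tested hepatocyte markers were dim, with Ttr at 51.1 on quercetin and 52.1 on control arrays and Cyp2e1 at 38.4 and 47.9. Mep1a was bright, at a mean of 5156 on quercetin and 6237 on control arrays, and Fabp2 averaged 1556 and 1352. Fabp2 and Mep1a therefore did not pass the check against small intestine. Pairwise correlations between arrays were 0.914 to 0.966, and control array 2 stood apart with the lowest mean correlation, 0.927. Its 3' to 5' signal ratio of beta-actin was 21.4, against 6.79 to 9.12 on the quercetin arrays and 8.65 to 12.4 on the other control arrays. Control array 1 had the lowest mean of 23 proliferation genes, at -1.05 relative to the mean of the 8 arrays on the log2 scale. In scrapings, fewer cells of a type and less RNA per cell cannot be told apart.

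None of the 26 tested sterol genes passed the test between the diets after adjustment over all 18625 probe sets. In limma the count past an adjusted p of 0.05 was 0 of 26, where 0.0107% of all tested probe sets passed. At an unadjusted p under 0.05 there were 3, or 11.5% of the 26, against 10.8% of all tested probe sets. They were the late enzymes Sc5d and Cyp51, both lower in quercetin-fed rats, where 5.71% of all probe sets were lower at that level, and the sensor Scap, higher, where 5.04% were higher. Over the brightest probe sets of the 10266 tested genes, 3.34% were lower and 6.09% higher at that level, with a median log2 fold change of 0.04. The groups did not overlap for 2 of the 26 genes, or 7.69%, against 6.39% of all tested probe sets. Scap lay wholly above the controls, as 3.09% of all tested probe sets did, and Sc5d wholly below, as 3.3% did. With all arrays, the share of sterol genes at an unadjusted p under 0.05 was near the background of the array. The count of 3 at an unadjusted p under 0.05 was 6 without control array 2, with Sqle, Msmo1 and Insig1 added, and 0 without both control arrays 1 and 2. Among all 18625 probe sets, 2003 were at that level with all arrays. That number was 2010 without control array 2 and 1394 without both control arrays 1 and 2.

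Of the tested genes 11 were higher and 15 lower in quercetin-fed rats, with a median log2 fold change of -0.04 and a range of -0.43 to 0.46. Without control array 1 the balance turned, to 15 higher and 11 lower with a median of 0.10, and with median centring 13 were higher and 13 lower with a median of 0.01. Over all tested probe sets the median was 0.01, with 9549 higher and 9076 lower. Over the brightest probe sets of the 10266 tested genes, 5744 were higher and 4522 lower. The 95% intervals of the 26 genes reached 0.41 to either side in the median, the width of a 32.9% increase or a 24.7% decrease. They ranged from 0.29 to 0.58.

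**Figure D1:**
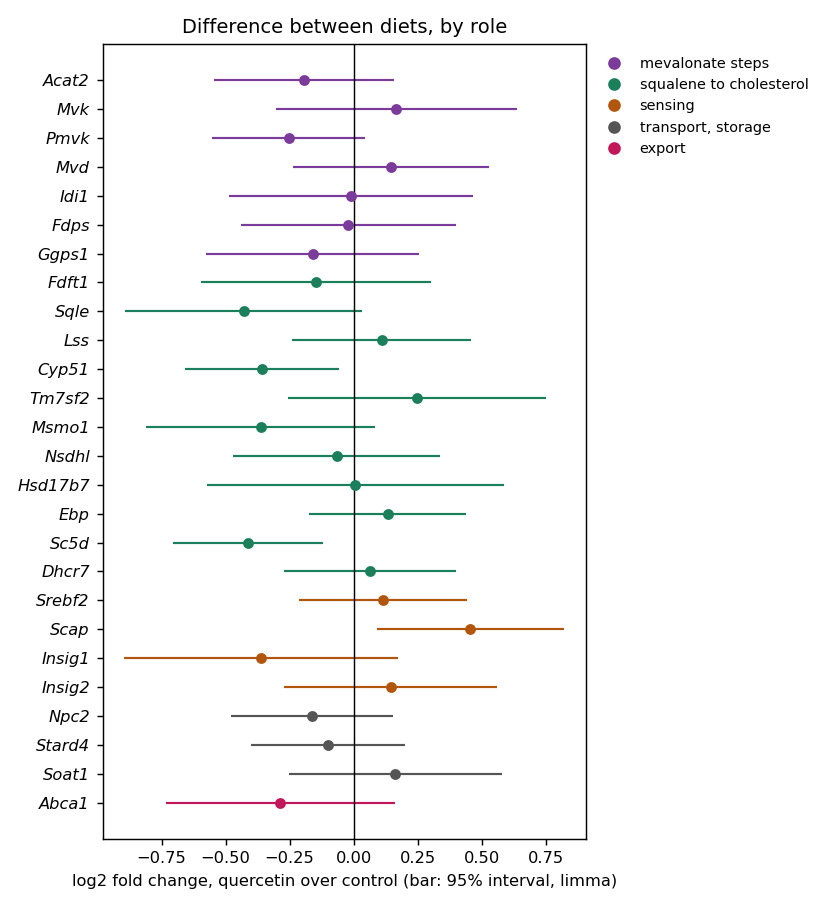
Log2 fold change of each of the 26 tested sterol genes, quercetin over control (horizontal axis), with its 95% interval from limma, coloured by role. Intervals of all genes but Cyp51, Sc5d and Scap include 0, and the values lie between -0.43 and 0.46.

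The first steps of synthesis, which lead to farnesyl and geranylgeranyl diphosphate, showed no gene at an unadjusted p under 0.05. Of all tested probe sets 10.8% were at that level. Of 7 tested genes 2 were higher and 5 lower, with a median log2 fold change of -0.02. Pmvk, phosphomevalonate kinase, had the smallest p of this stage. Its signal was 598, 644, 780 and 715 on the quercetin arrays, against 918, 788, 721 and 845 on the control arrays. The quercetin values were mostly the lower ones, but quercetin array 3 exceeded control array 3. Its log2 fold change was -0.25 (SE 0.138, 95% interval -0.55 to 0.04, limma adjusted p = 0.541).

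Acat2, the cytosolic thiolase that condenses acetyl-CoA at the entry to the pathway, had signals of 610, 561, 474 and 460 on quercetin arrays. On control arrays they were 708, 651, 612 and 460. The lowest control value lay beneath every quercetin value, so the control range held all the quercetin values. This gave a log2 fold change of -0.19 (SE 0.163).

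Mvk, mevalonate kinase, averaged 162 ± 23.5 in quercetin and 146 ± 40.8 in control samples (SD, n = 4 each). Mvd, the decarboxylase that yields isopentenyl diphosphate, averaged 157 ± 16.3 in quercetin and 142 ± 24.2 in control samples. Both differences were within the spread between samples, with log2 fold changes of 0.17 and 0.14. Idi1, which isomerises isopentenyl diphosphate, and Fdps, which joins the isoprene units into farnesyl diphosphate, had log2 fold changes of -0.01 and -0.02. For Idi1 the means were 1463 ± 332 in quercetin and 1497 ± 468 in control samples. For Fdps they were 1599 ± 273 in quercetin and 1649 ± 427 in control samples. Ggps1 branches off here to make the lipid used in protein prenylation, and had -0.16 (SE 0.193), with 137 ± 21.6 in quercetin and 156 ± 32.8 in control samples.

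The late enzymes, from squalene to cholesterol, held both synthesis genes with an unadjusted p under 0.05, or 18.2% of those tested. Both were lower in quercetin. Over all tested probe sets 10.8% were at that level and 5.71% were lower, and over the tested genes 3.34% were lower. A difference between the early and late stages was not tested. Of 11 tested, 5 were higher and 6 lower, with a median of -0.07. Sc5d, a sterol desaturase near the end of the pathway, had signals of 1107, 1379, 1107 and 1246 on the quercetin arrays. The control arrays gave 1540, 1945, 1476 and 1513. Every quercetin value was below every control value, and control array 2 was the highest of all. The log2 fold change was -0.41 (SE 0.136, 95% interval -0.71 to -0.12), a level of 0.751 times the control. The limma p was 0.00961 before and 0.333 after adjustment. Without control array 2 the log2 fold change was -0.32, and without both control arrays 1 and 2 it was -0.31, with an unadjusted limma p of 0.0513.

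Sc5d was read by 2 further probe sets, and they did not give the same value. One had -0.47 (SE 0.170), with signals of 276, 310, 274 and 355 on quercetin arrays and 562, 359, 377 and 420 on control arrays, again with no overlap. The other had -0.01 (SE 0.244). In that one control array 2 was the lowest array, at 252, and control array 1 the highest, at 706.

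Cyp51, the lanosterol demethylase, had signals of 4297, 5178, 4176 and 3654 on quercetin arrays, against 6591, 5350, 4997 and 5220 on control arrays. Only quercetin array 2 reached the control range. Cyp51 thus had a log2 fold change of -0.36 (SE 0.139, 95% interval -0.66 to -0.06), or 0.780 times the control. The limma p was 0.0234 before and 0.384 after adjustment. The unadjusted limma p was over the threshold in several alternatives. It was 0.0645 without control array 1 (-0.27), 0.0522 without quercetin array 3, 0.0826 without quercetin array 4 (-0.28), and 0.116 without both control arrays 1 and 2 (-0.25). With median centring it was 0.0713, and without the mean-variance trend 0.0578. The probe set ends in _s_at, a suffix Affymetrix gives where probes may match more than 1 transcript, and the other Cyp51 probe set had -0.21 (SE 0.176).

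Sqle, squalene epoxidase, a rate-limiting step and a target of SREBP2, had signals of 527, 614, 497 and 501 on quercetin arrays. On control arrays they were 1213, 534, 636 and 660. Control array 1 was far above the rest, control array 2 lay inside the quercetin range and the other two lay just above it. Sqle had a log2 fold change of -0.43 (SE 0.214, limma adjusted p = 0.505). It was -0.18 without control array 1 and -0.57 without control array 2. The unadjusted limma p of Sqle was under 0.05 in 3 of 20 alternatives.

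Msmo1, which oxidises a methyl group of the sterol ring for removal, had signals of 1732, 1712, 1378 and 1691 on quercetin arrays and 3321, 1443, 2069 and 1919 on control arrays. Control array 1 was again the highest, and control array 2 lay inside the quercetin range. Msmo1 had a log2 fold change of -0.36 (SE 0.207, limma adjusted p = 0.565). It was -0.14 without control array 1 and -0.54 without control array 2.

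**Figure D2:**
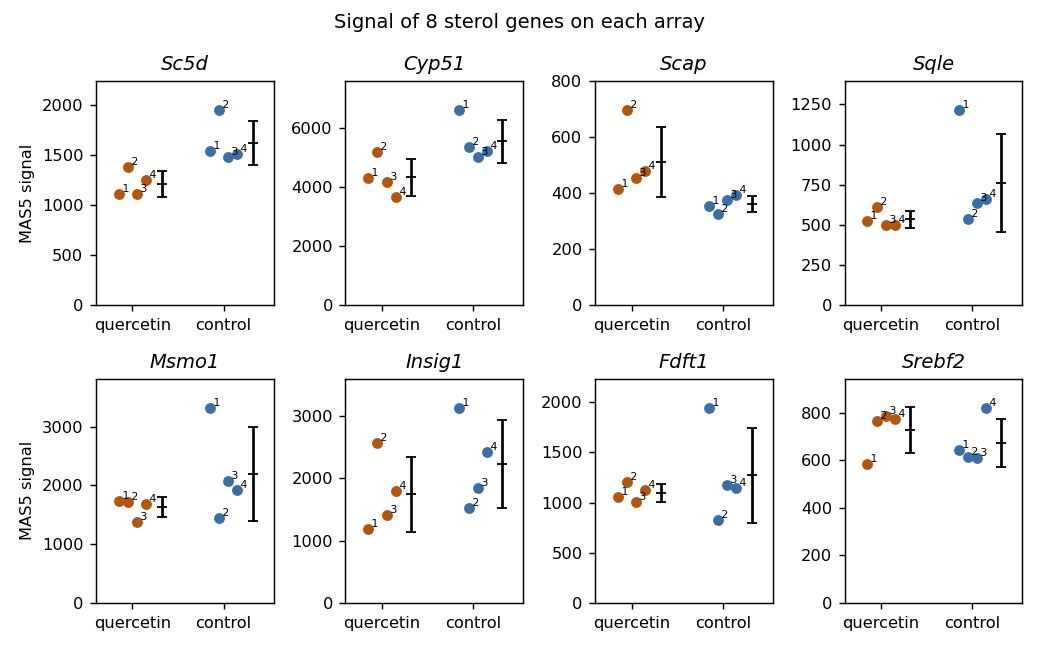
MAS5 signal (vertical axis, linear, from 0) of 8 sterol genes on each array, quercetin left and control right. Numbers beside the points are the replicate numbers, and the bar is the mean with 1 SD (n = 4 each). The groups are separate for Sc5d and Scap, and control array 1 is far above the other arrays for Sqle, Msmo1 and Fdft1.

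On their brightest probe sets the remaining late enzymes did not differ beyond the spread between samples. Fdft1, squalene synthase, averaged 1096 ± 88.9 in quercetin and 1271 ± 474 in control samples, a log2 fold change of -0.15 (SE 0.208). It was 0.0786 without control array 1, and the other Fdft1 probe set had -0.36 (SE 0.175). Lss, which folds the squalene epoxide into lanosterol, had 0.11 (SE 0.162) and Tm7sf2, a sterol reductase, 0.25 (SE 0.233). Nsdhl and Hsd17b7 complete the removal of the methyl groups. Nsdhl had -0.07, and Hsd17b7 had 0.01, with 168 ± 11.1 in quercetin and 181 ± 89.5 in control samples. Ebp, the sterol isomerase, had 0.13 (SE 0.141). Dhcr7, the reductase that makes cholesterol itself, had 0.06 (SE 0.156), with 834 ± 158 in quercetin and 792 ± 99.7 in control samples.

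Across samples the synthesis enzymes moved more within the control group than between the diets. Of 18 tested enzymes, 11 had their highest value of the 8 arrays on control array 1, or 61.1%, where 14.8% of all tested probe sets did. On control array 2, 9 of 18 had their lowest value, or 50%, against 19.5% of all tested probe sets. The mean of the 18 enzymes, relative to the mean of the 8 arrays on the log2 scale, was 0.01, 0.05, -0.15 and -0.08 on the quercetin arrays. On the control arrays it was 0.40, -0.25, 0.04 and -0.01. The quercetin arrays thus lay within the control range, and the group means differed by -0.09. The sign of that difference rested on control array 1, without which it was 0.03. Without control array 2 the difference was larger, at -0.18.

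The width of the control range is plain in a pair of late enzymes. Hsd17b7 had 177, 157, 178 and 160 on quercetin arrays, against 305, 90.2, 167 and 164 on control arrays. Fdft1 had 1053, 1205, 1001 and 1126 on quercetin arrays, against 1941, 826, 1174 and 1142 on control arrays. Both genes were picked for this after their values were seen, and both show quercetin values packed inside a wide control range. The SD of the log2 values was smaller in quercetin for 14 of 18 enzymes, or 77.8%, against 59.0% of all tested probe sets, with a median of 0.16 in quercetin and 0.34 in control samples. Over all tested probe sets the median SD was 0.26 in quercetin and 0.30 in control samples.

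**Figure D3:**
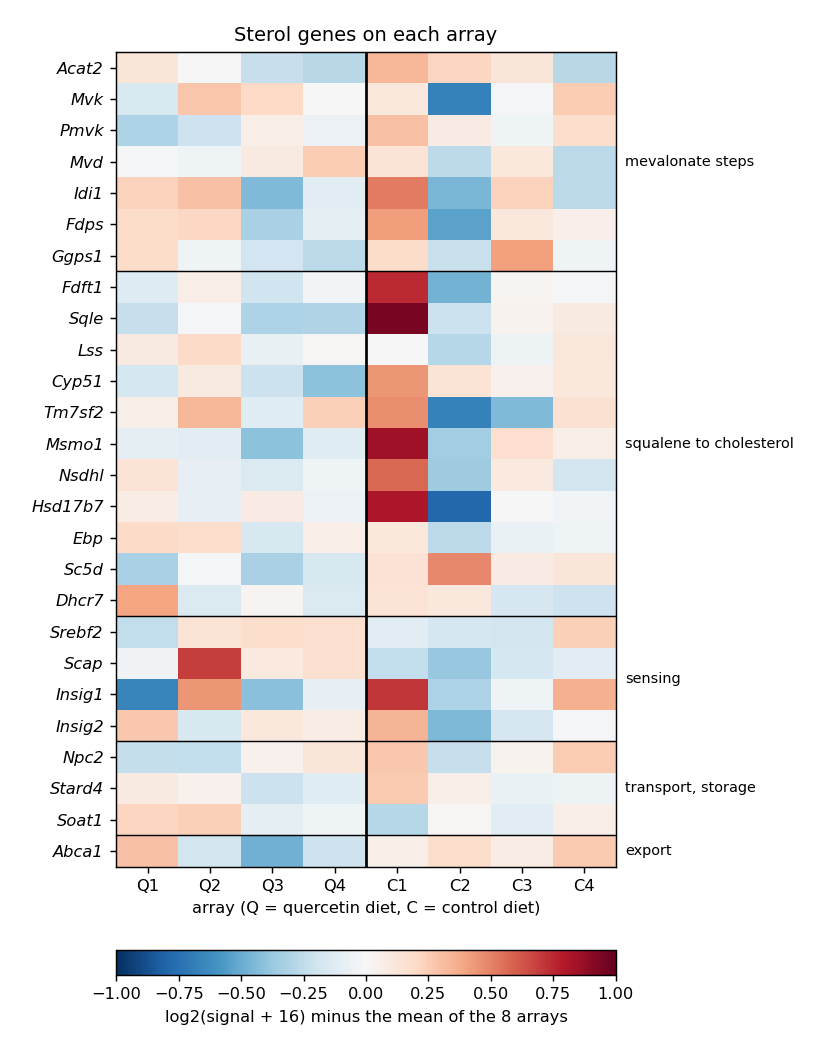
Log2(signal + 16) of the 26 tested sterol genes (rows, by role) on each array (columns, quercetin left of the line), minus the gene's mean over the 8 arrays. Control array 1 is mostly red and control array 2 mostly blue among the synthesis enzymes, while the quercetin arrays are pale for most genes.

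Other marker levels differed on the same control arrays, and their part in this pattern was not tested. The mean of the 10 epithelial markers ran from 0.01 to 0.02 on the quercetin arrays and from -0.16 to 0.13 on the control arrays. Its lowest value was on control array 2 and its highest on control array 1. The 10 colonocyte markers ran from -0.03 to 0.18 on the quercetin arrays and from -0.43 to 0.26 on the control arrays, with the same 2 arrays at the ends. Proliferation genes ran from 0.04 to 0.62 on the quercetin arrays and from -1.05 to 0.14 on the control arrays. All 23 were higher in quercetin, with a median log2 fold change of 0.51 and 0 past adjustment. Of all tested genes, by their brightest probe sets, 56% were higher. At an unadjusted limma p under 0.05 there were 6 proliferation genes, or 26.1%, against 10.8% of all tested probe sets. All 6 were higher, where 5.04% of all tested probe sets and 6.09% of all tested genes were higher at that level. The difference between the group means of the proliferation list was 0.56, and it was 0.31 without control array 1 and 0.68 without control array 2. Control array 1, highest for the synthesis enzymes, was lowest for the proliferation genes. Macrophage and dendritic cell markers, of which 4 of 10 were tested, ran from -0.15 to 0.32 on the quercetin arrays and from -0.55 to 0.15 on the control arrays. Smooth muscle markers ran from -0.15 to 0.12 on the quercetin arrays and from -0.19 to 0.20 on the control arrays, again with control array 2 lowest and control array 1 highest.

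**Figure D4:**
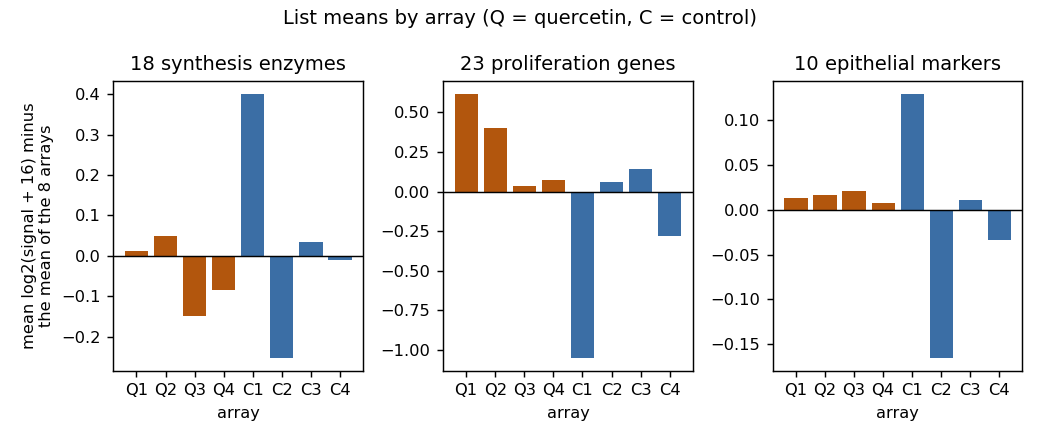
Mean log2(signal + 16) of 18 synthesis enzymes, 23 proliferation genes and 10 epithelial markers on each array (bars, from 0, with a separate vertical scale in each panel), minus the mean of the 8 arrays. Control array 1 has the highest enzyme mean, 0.40, and the lowest proliferation mean, -1.05, and control array 2 has the lowest enzyme mean, -0.25.

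Among the genes that sense sterols, Scap was higher in quercetin-fed rats at an unadjusted p under 0.05. Its signals were 415, 696, 456 and 478 on quercetin arrays and 355, 324, 375 and 393 on control arrays. All quercetin values exceeded all control values, and quercetin array 2 was the highest by far. Scap had a log2 fold change of 0.46 (SE 0.170, 95% interval 0.09 to 0.82), or 1.37 times the control. The limma p was 0.0187 before and 0.366 after adjustment. Without quercetin array 2 the value was 0.30, over 1.5 times smaller, with an unadjusted limma p of 0.0721, and without both control arrays 1 and 2 it was 0.37, with an unadjusted limma p of 0.0916. A second Scap probe set gave -0.15 (SE 0.285), with a mean signal of 50.6 in quercetin and 56.8 in control samples.

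Insig1, the retention protein that SREBP2 induces, had signals of 1194, 2574, 1414 and 1790 on quercetin arrays and 3130, 1529, 1840 and 2425 on control arrays. The groups overlapped widely, with control array 1 highest and quercetin array 1 lowest. Insig1 had a log2 fold change of -0.36 (SE 0.247, 95% interval -0.90 to 0.17, limma adjusted p = 0.640). It was -0.18 without control array 1 and -0.20 without quercetin array 1, and without quercetin array 2 it was -0.57, at an unadjusted limma p of 0.0314.

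Srebf2, which encodes the transcription factor itself, had signals of 584, 765, 786 and 775 on quercetin arrays. On control arrays they were 642, 614, 608 and 819. The groups overlapped, since quercetin array 1 was the lowest of all and control array 4 the highest. Srebf2 had a log2 fold change of 0.11 (SE 0.151, 95% interval -0.21 to 0.44). SREBP2 is regulated largely by cleavage, which RNA levels do not measure. Insig2, the second retention protein, had 0.14 (SE 0.192) on its brightest probe set and -0.49 (SE 0.234) on the other.

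Genes that move and store sterols inside the cell did not differ beyond the spread between samples. Npc2, which binds cholesterol in the lysosome and hands it to the exit channel, had signals of 2317, 2306, 2821 and 2979 on quercetin arrays and 3305, 2339, 2804 and 3268 on control arrays. Its 2 lowest arrays were quercetin arrays, and control array 2 was close to them. The log2 fold change was -0.16 (SE 0.147, limma adjusted p = 0.738). Stard4, a sterol carrier of the cytosol, averaged 541 ± 54.3 in quercetin and 582 ± 63.9 in control samples, a log2 fold change of -0.10. Soat1, which esterifies cholesterol for storage, averaged 101 ± 13.7 in quercetin and 88.1 ± 11.0 in control samples, a log2 fold change of 0.16.

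Abca1, which exports cholesterol and phospholipid to apolipoprotein A-I and is induced by the oxysterol receptors LXR, had signals of 127, 86.0, 67.1 and 84.8 on quercetin arrays. On control arrays they were 105, 115, 106 and 123. Of the quercetin arrays 3 lay below all control arrays, while quercetin array 1 was the highest of the 8. The log2 fold change was -0.29 (SE 0.207, 95% interval -0.73 to 0.16), and it was -0.43 without quercetin array 1 and -0.17 without quercetin array 3, with limma adjusted p of 0.563 and 0.819. Another 2 tested probe sets of Abca1 had -0.25 and -0.00. Abcg5 and Abcg8, which together pump plant sterols and cholesterol back into the lumen, were dim, with signals of 8.66 to 37.5 on quercetin and 1.74 to 37.4 on control arrays for Abcg5. For Abcg8 they were 4.10 to 39.6 on quercetin and 17.8 to 31.7 on control arrays. Signals this low scatter widely in MAS5, and no difference could be detected at this level.

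Where a gene had more than 1 probe set, the probe sets often differed. Of the 28 genes 15 had several, with 21 further probe sets, of which 16 passed the filter. Among those 16, 11 had the sign of the brightest one. The exceptions in sign lay at Idi1, Ggps1, Scap, Insig2 and Stard4. The second Hsd17b7 probe set had 0.73 (SE 0.322) against 0.01 on the brightest, and its lowest array was control array 2, at 23.8. The limma p of that second probe set was 0.0409 before and 0.439 after adjustment. When the log2 values of all of a gene's probe sets were averaged, 0 of the 26 genes kept an unadjusted p under 0.05. Over the whole array 2000 were at that level in that fit, against 2003 in the main test. Cyp51 then had -0.29, Sc5d -0.30 and Scap 0.15.

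**Figure D5:**
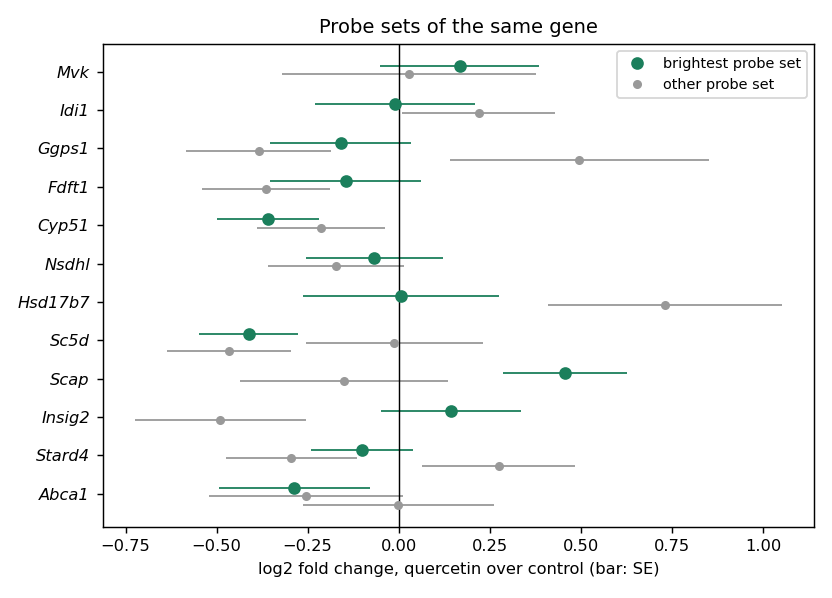
Log2 fold change, quercetin over control (horizontal axis), of each tested probe set of the 12 sterol genes with several, with 1 SE. Green points are the brightest probe set of a gene and grey points the others. The 2 Scap probe sets lie on opposite sides of 0, at 0.46 and -0.15, and the 3 Sc5d probe sets lie at -0.41, -0.47 and -0.01.

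Of 52 further genes listed for sterol processing, lipoprotein uptake and oxysterol metabolism, 39 were tested. None passed limma after adjustment. At an unadjusted p under 0.05 there were 5, or 12.8% against 10.8% of all tested probe sets, with 5 higher and 0 lower in quercetin. Over all tested probe sets 5.04% were higher at that level. The groups did not overlap for 12.8% of the list, against 6.39% of all tested probe sets. Of these genes 4 lay wholly above the controls and 1, Rnf139, wholly below, at a log2 fold change of -0.30 (SE 0.144). The list's median log2 fold change was 0.07, with 27 higher and 12 lower, beside 0.01 over all tested probe sets. Over the brightest probe sets of the 10266 tested genes the median was 0.04, and 56% were higher. At an unadjusted p under 0.05, 6.09% of those genes were higher, and the groups did not overlap for 5.83%. Mbtps1, the protease that cuts SREBPs first in the Golgi, had signals of 446, 415, 413 and 488 on quercetin arrays, against 359, 305, 357 and 380 on control arrays. Its groups did not overlap, and the log2 fold change was 0.32 (SE 0.139, limma adjusted p = 0.436).

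Cyb5b, a cytochrome b5 of the outer mitochondrial membrane, had 581, 681, 568 and 622 on quercetin arrays, against 424, 447, 449 and 459 on control arrays. This pair of groups was well apart, with a log2 fold change of 0.45 (SE 0.128, limma adjusted p = 0.285), but its other probe set had 0.06. Lrp1, a large receptor for lipoprotein remnants, had 0.44 (SE 0.154), with -0.11 (SE 0.395) on a second probe set. Acat1, the mitochondrial thiolase of ketone and isoleucine metabolism, had 0.42 (SE 0.148) and 0.32 on another probe set. Sult2b1, which adds sulfate to cholesterol, had 0.40 (SE 0.170) and 0.84 (SE 0.309) on another probe set, both higher in quercetin.

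Fatty acid synthesis shares part of its control with sterol synthesis through the SREBP family. Of 17 tested genes of that pathway 6 were higher and 11 lower in quercetin, with a median of -0.09 and 0 past adjustment. At an unadjusted p under 0.05 there were 2, or 11.8% against 10.8% of all tested probe sets, both lower in quercetin, where 5.71% of all were. Over the brightest probe sets of all tested genes 9.43% were at that level, and 3.34% were lower. Scd2, a fatty acid desaturase, had signals of 1871, 1572, 1170 and 1024 on quercetin arrays and 3151, 2346, 2277 and 2376 on control arrays. The groups were separate, at a log2 fold change of -0.87 (SE 0.186, limma adjusted p = 0.233), and its other 3 probe sets had -0.32, -0.29 and -0.25. Mlxipl, a glucose-responsive activator of lipid genes, had -0.54 (SE 0.185). Srebf1, the SREBP gene named for fatty acid synthesis, had -0.22 (SE 0.165).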

How the data were processed

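Total RNA of 8 distal colon mucosa samples (4 quercetin, 4 control, by sample title) was read on Affymetrix arrays. The authors deposited an intensity on a linear scale for each probe set of every array, from MAS5 per the submitters' processing notes. Further steps were not given in the sources used here. The trimmed mean of the deposited signals (2% at either end) was 200.1 on every array, and medians of log2 signal were 5.51 to 5.91.

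From 31099 probe sets the 57 array controls were dropped, and the upper 60% by mean over the 8 arrays were tested (18625) on log2(signal + 16), which understates changes of dim genes. The diets were compared with limma 3.58.1 (R 4.3.3), using lmFit and then eBayes with trend, two-sided, and p-values were adjusted by Benjamini-Hochberg over all tested probe sets at a threshold of 0.05. Gene symbols came from the platform annotation (20826 probe sets with 1 symbol, 436 with several, 9780 with none), and all 28 genes matched RefSeq by Entrez identifier with the same symbol. Promoters were read from RefSeq's GRCr8 table.

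The genes, lists and tests were chosen with earlier results of these data known. The naming rule took every listed gene, with values on all 8 arrays for those with an unadjusted p under 0.05, filled up to 10 by the next smallest p, plus Srebf2, Insig1 and Abca1; genes outside it were picked after their values were seen. From the related sterol and fatty acid lists it took those with an unadjusted p under 0.05. The labels do not say outright that each array holds a separate rat, so p-values reflect only how these samples vary, which may be technical in part. Precision is limited by the array number. The labels do not say whether the replicate numbers of the titles pair the samples, and the main test treated the samples as unpaired.

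The alternatives tried were a block on replicate number, array weights, eBayes without trend, leaving out each array, averaging the probe sets of a gene, no filter or the upper 40%, median centring, quantile normalisation, and pseudocounts of 1 or 64. After the data were seen, fits without control arrays 1 and 2 and with the GAPDH 3' to 5' ratio as a covariate were added.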

Additional observations from a re-analysis of the deposited data

Results flagged for a closer look

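The 28 genes and the mean of the synthesis enzymes were screened in both diets for a lone array. Of these 58 sets of 4 arrays, 4 held one, and about 2.9 would by chance, which is 1 in 20. In brackets is the distance of that array from its nearest neighbour, divided by the whole range of the set.

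Msmo1 was low on quercetin array 3, at a signal of 1378 against 1691 to 1732 on the other quercetin arrays (0.885). Srebf2 was low on quercetin array 1, at 584 against 765 to 786 (0.897), and without that array its log2 fold change was 0.21. Srebf2 was high on control array 4, at 819 against 608 to 642 on the other control arrays (0.835). Sc5d was high on control array 2, at 1945 against 1476 to 1540 on the other control arrays (0.863).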

How the results depend on the processing

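The count of 0 sterol genes past limma's adjusted threshold was the same under every alternative that was run, with the smallest adjusted p of a sterol gene between 0.162 and 0.662. Over the whole array 2 probe sets passed with all samples; the number was 3 with a pseudocount of 64, 1 with quantile normalisation, median centring, no filter and no trend, 1 to 2 with single arrays left out, and 0 without both control arrays 1 and 2, where 1394 had an unadjusted p under 0.05. The count of sterol genes at an unadjusted p under 0.05, 3 with all arrays, was 2 with median centring and with no trend, 5 with array weights, 5 with the GAPDH ratio as a covariate, 0 when the probe sets of a gene were averaged, 0 without both control arrays 1 and 2, and 2 to 6 with single arrays left out; the 6 were without control array 2 and included Sqle, Msmo1 and Insig1. The array-wide number at an unadjusted p under 0.05 moved too, from 2003 in the main test to 2240 with array weights. It was 2581 with the GAPDH ratio, 1924 with median centring, 1838 with no trend and 2000 with averaged probe sets. With single arrays left out it was 1475 to 2064. With the replicate number as a block 1 probe set passed, and the block changed no call among the sterol genes. Of the 4 same-numbered pairs 2 correlated below 0 in their deviations (-0.15 and -0.02), and the others gave 0.16 and 0.14. Of 4 quercetin arrays 1 correlated best with its own number. So few weak correlations cannot settle whether the numbers pair the samples.

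The median log2 fold change of the sterol genes was 0.00632 with median centring, which gave 13 higher and 13 lower, and -0.18 to 0.10 with single arrays left out, positive without control array 1, which gave 15 higher and 11 lower. Among the genes, 31 of 520 values had the opposite sign, each of a gene with no call. With median centring Idi1 had 0.0392 and Fdps 0.0294, and with quantile normalisation Idi1 had 0.00377. Hsd17b7 had -0.0128 with a pseudocount of 64, -0.0259 with array weights and -0.10 with the GAPDH ratio. Without both control arrays Mvk had -0.0357, Idi1 0.0137, Nsdhl 0.00919 and Stard4 0.00615. With the mean of all probe sets Mvk had -0.00763, Idi1 0.10, Lss -0.18, Srebf2 -0.0851 and Insig2 -0.17. With single arrays left out, Mvk ran from -0.0311 to 0.28, Idi1 from -0.17 to 0.16, Fdps from -0.20 to 0.11, Fdft1 from -0.33 to 0.0786, Nsdhl from -0.20 to 0.11, Hsd17b7 from -0.26 to 0.28 and Dhcr7 from -0.0565 to 0.12. The causes were not tested. Signals near background limit what can be said of Abcg5 and Abcg8.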
